A study of Saccharomyces cerevisiae with 41 samples.

Results

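The 10 genes described here belong to the iron uptake regulon of budding yeast: FIT1, FIT2, FIT3, ARN1, ARN2, SIT1, ENB1, FET3, FTR1 and TIS11. They were chosen by symbol as known iron uptake genes, and each had exactly 1 probe set on the array, so that they make up 10 of the 5380 probe sets tested and 10 of the 5337 genes. All 10 reached the detection limit used (a log2 signal of 4 on at least 2 arrays). RNA came from 41 cultures of strain YPH499, a haploid laboratory strain, and each sample was hybridised to its own Affymetrix Yeast 2.0 array. The groups were snf1Δ rad23Δ, rad23Δ and rad4Δ cells, each unirradiated and 30 and 60 min after UV, and snf1Δ, mig3Δ and WT cells, each unirradiated and 15, 30 and 60 min after UV. Every group had 2 arrays, which the design text calls biological replicates, except mig3Δ at 15 min, which had 1. All cells grew in YPD, a rich glucose medium, at 30 °C to an OD600 of 1.0 and were moved into water. There they received 100 J/m2 of UV-C or, for the unirradiated groups, a mock exposure. Recovery after UV took place in fresh YPD. No mock-treated cells were sampled after recovery, so UV and the time in fresh medium cannot be told apart.

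Budding yeast turns these genes on when iron is scarce, through the transcription factor Aft1 and its relative Aft2, which leave the DNA when the cell makes enough iron-sulfur clusters. Fit1, Fit2 and Fit3 are cell wall mannoproteins that help hold iron-carrying siderophores at the cell surface. Arn1, Arn2, Sit1 and Enb1 are transporters that each take up certain siderophores made by other microbes. Fet3, a copper-dependent ferroxidase, and Ftr1, an iron permease, form the high-affinity uptake complex of the plasma membrane. Tis11, also called Cth2, binds mRNAs of iron-using proteins and promotes their decay when iron is short. Snf1 is the yeast AMP-activated kinase that acts on glucose limitation, Mig3 is a repressor related to the glucose repressor Mig1, and Rad4 and Rad23 form a complex that recognises UV damage for nucleotide excision repair.

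Values are log2 signals, so that a difference of 1 is a 2-fold change, and one gene's level was not set against another's. In the gene table the members carry the names YDR534C (FIT1), YOR382W (FIT2), YOR383C (FIT3), YHL040C (ARN1), YHL047C (ARN2), YEL065W (SIT1), YOL158C (ENB1), YMR058W (FET3), YER145C (FTR1) and YLR136C (TIS11). The median tested probe set lay between 10.63 and 10.77 on every array. SNF1 read 2.09 to 2.74 on the 14 arrays labelled as lacking it and 10.69 to 11.92 on the other 27. MIG3, RAD23 and RAD4 likewise read at most 2.27 where deleted and at least 7.59 elsewhere. The 2 WT arrays at 60 min stood apart from each other: 780 tested probe sets differed by more than 2-fold between them, against 5 to 384 in the other pairs, and the members' WT responses at 60 min are given for each of these arrays. Next came mig3Δ at 60 min with 384, mig3Δ at 30 min with 370 and snf1Δ rad23Δ at 60 min with 282. Differences were tested with limma on all 41 arrays, and a gene was called at a Benjamini-Hochberg adjusted p under 0.05 over all 5380 probe sets. With 2 arrays a group these p-values measure only the spread between the deposited samples. The spread of each gene was pooled over all 21 groups, so for some members the WT pair at 60 min widened the SE of every comparison. For FET3 the SD was 1.89 in that pair and at most 0.49 in any other group, and for FIT2 it was 2.00 and at most 0.65.

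**Figure D1:**
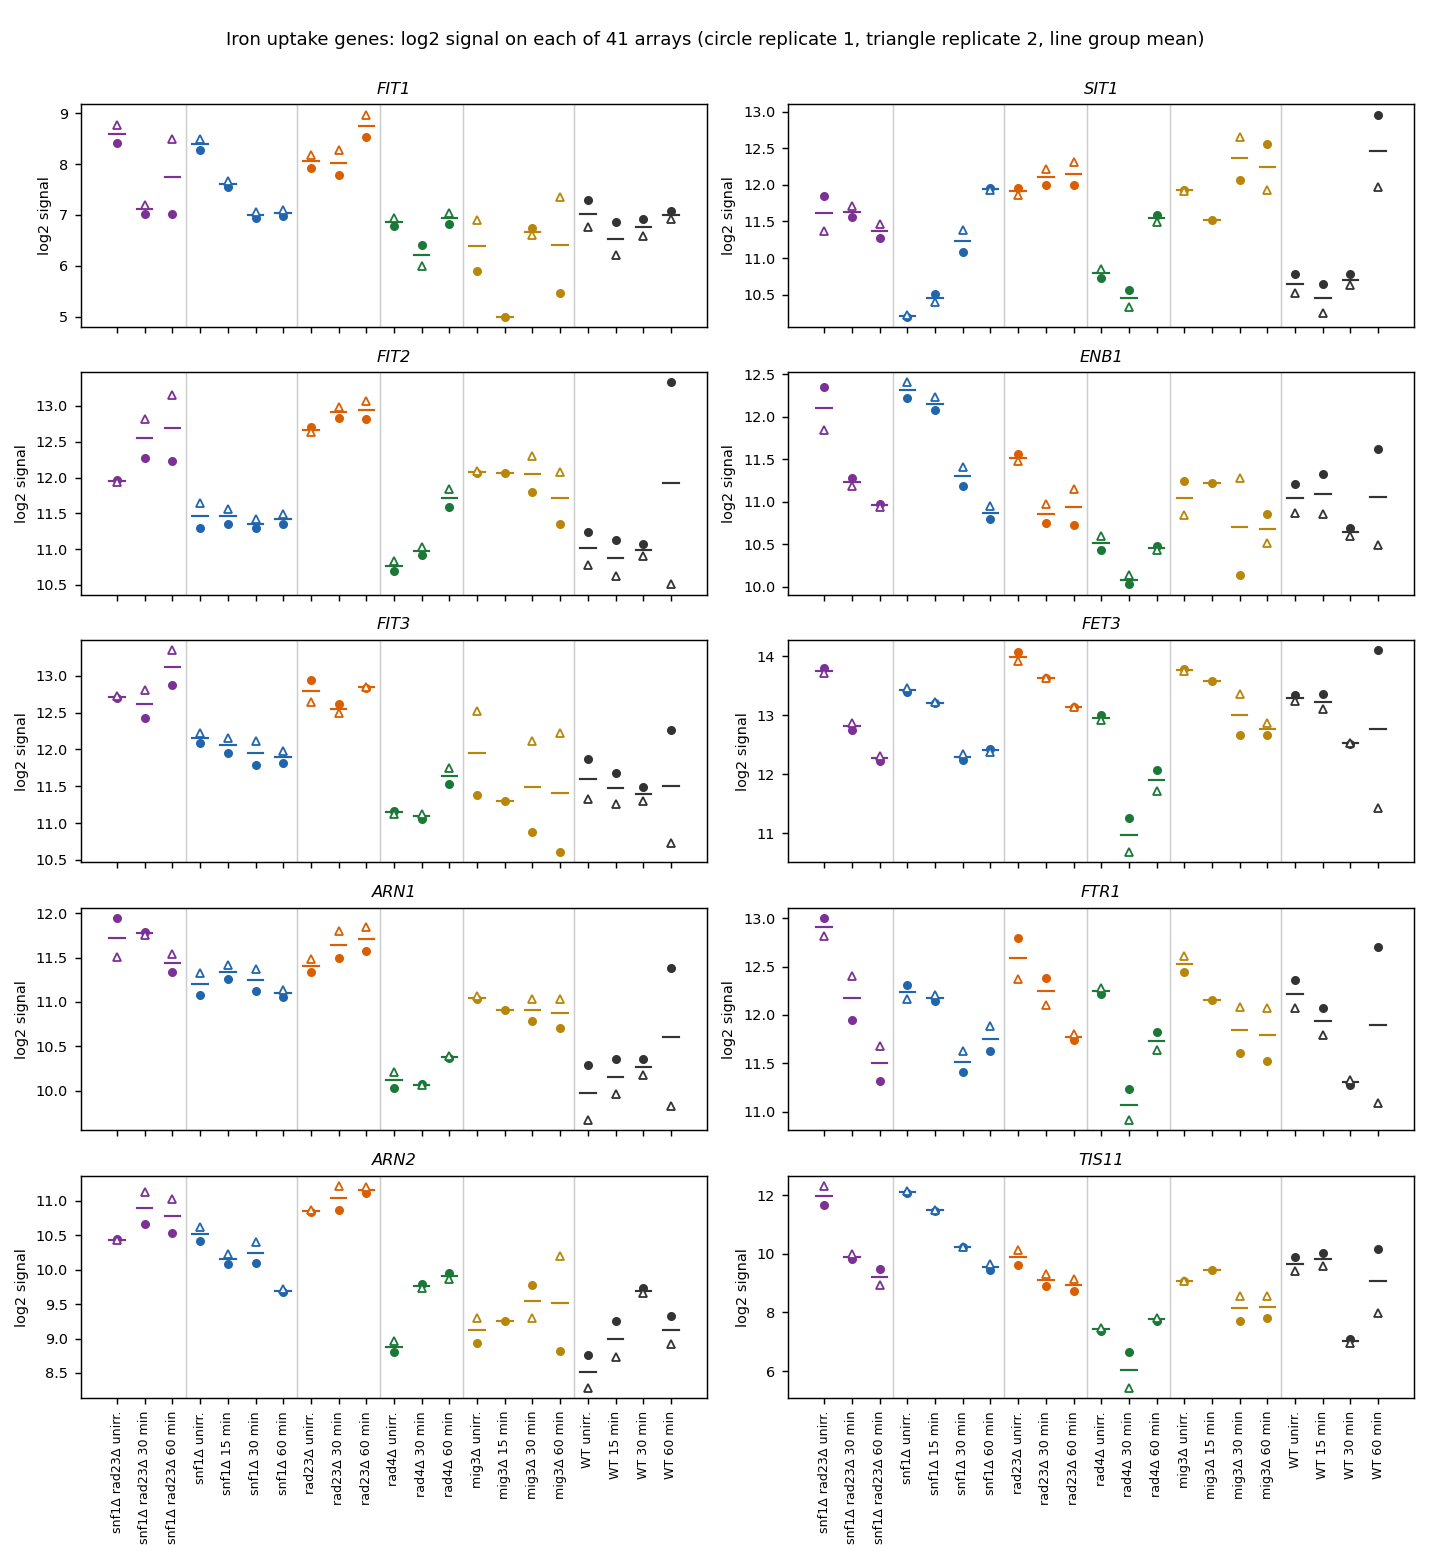
Log2 signal of each of the 10 iron uptake genes (1 panel each) on all 41 arrays, with strain and time along the horizontal axis, circles for replicate 1, triangles for replicate 2 and lines for the group mean; each panel has its own vertical scale. TIS11 covers the widest range, with group means between 6.03 and 12.10, and the 2 WT arrays at 60 min lie far apart for FIT2, FET3 and TIS11.

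TIS11 had the widest range of the 10 genes. Its group means ran over 6.06 log2 units, with the highest in unirradiated snf1Δ (12.10 ± 0.05, SD, n = 2) and the lowest in rad4Δ at 30 min (6.03 ± 0.87, n = 2). Unirradiated snf1Δ and snf1Δ rad23Δ headed the order with overlapping arrays, and snf1Δ at 15 min and at 30 min followed without overlap. For ENB1, too, unirradiated snf1Δ was highest (12.31 ± 0.13, n = 2) and rad4Δ at 30 min lowest (10.08 ± 0.08, n = 2). FET3 peaked in unirradiated rad23Δ (14.00 ± 0.11, n = 2) and FTR1 in unirradiated snf1Δ rad23Δ (12.91 ± 0.13, n = 2), and both were lowest in rad4Δ at 30 min, at 10.97 ± 0.41 and 11.07 ± 0.23 (n = 2). FIT1 and FIT2 were highest in rad23Δ at 60 min, FIT3 in snf1Δ rad23Δ at 60 min, ARN1 in snf1Δ rad23Δ at 30 min and ARN2 in rad23Δ at 60 min. ARN1 and ARN2 were lowest in unirradiated WT. SIT1 departed from the rest: its highest mean, 12.46 ± 0.70 (n = 2), was in WT at 60 min and its lowest, 10.21 ± 0.01 (n = 2), in unirradiated snf1Δ. In the order of the 21 group means, between 9 of 20 neighbouring pairs (FET3) and 18 of 20 (ARN1) had overlapping arrays, so most single steps in these orders were within the spread of the replicates.

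In WT cells the question was what UV does to these genes over 1 h. TIS11 fell at 30 min, FTR1 fell and ARN2 rose at that time, and SIT1 rose at 60 min. No other member passed the test at any time. TIS11 read 9.90 and 9.40 in the unirradiated cultures, 10.02 and 9.60 at 15 min, 7.10 and 6.96 at 30 min, and 10.16 and 7.97 at 60 min. Both 30 min arrays lay below every other WT array, and the change of -2.62 ± 0.46 (SE, limma adjusted p = 2.41e-04) was the 17th lowest of the 5380 at that time. FTR1 read 11.28 and 11.33 at 30 min, against 12.36 and 12.07 in unirradiated cells, a change of -0.91 ± 0.31 (limma adjusted p = 0.0338). Its partner FET3 read 12.51 and 12.54 at 30 min, against 13.34 and 13.24 in unirradiated cells, which did not pass the test (-0.77 ± 0.43, limma adjusted p = 0.203). That SE includes the spread of the WT pair at 60 min. ARN2 read 9.73 and 9.66 at 30 min, against 8.75 and 8.28, a change of 1.18 ± 0.29 (limma adjusted p = 0.00439).

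SIT1 stayed between 10.25 and 10.78 on the 6 WT arrays before 60 min and reached 12.96 and 11.97 at 60 min. The change of 1.81 ± 0.25 (limma adjusted p = 1.45e-05) was the only one called among the members at that time. At 15 min limma called none of the 10 members, and none had an unadjusted p under 0.05 (0 of 10), where 5.91% of all probe sets were called. At 30 min 1 member was called higher and 2 lower, beside 12.6% of all probe sets called higher and 12.6% lower. At 60 min 1 was called higher and 0 lower, beside 12.1% and 18.5%. The shares of members called were thus near those of all genes at 30 min. The calls of TIS11 at 30 min and SIT1 at 60 min held without any 1 of their 4 arrays, while ARN2 was not called without unirradiated replicate 2 (0.94) and FTR1 was not called without any 1 of its 4 arrays (-1.06 to -0.76). SIT1 was also not called when the fit held the 4 arrays of that comparison alone.

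The 2 WT cultures at 60 min gave different pictures of the regulon. Replicate 1 read above replicate 2 for all 10 genes, and by more than 2-fold for 7 of them, whereas 45.9% of all tested probe sets were higher in replicate 1 and 6.04% were so by more than 2-fold. The median difference, replicate 1 minus replicate 2, was 1.54 over the 10 genes and -0.05 over all probe sets. FIT2 read 13.33 in replicate 1, the highest of all 41 arrays, and 10.51 in replicate 2, the lowest of all 41. FET3 read 14.10 in replicate 1, also its highest of the 41 arrays, and 11.43 in replicate 2. FIT2 ranked 12th, FET3 17th and TIS11 37th among 5380 probe sets in this difference. SIT1 was the one member more than 2-fold above unirradiated cells in both cultures.

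Set against the mean of the unirradiated WT cultures, replicate 1 was higher for all 10 genes, by 2.32 for FIT2, 0.66 for FIT3 and 0.04 for FIT1. Among its siderophore transporters the differences were 2.31 for SIT1, 1.40 for ARN1, 0.81 for ARN2 and 0.58 for ENB1. FET3 differed by 0.81, FTR1 by 0.49 and TIS11 by 0.51. Replicate 2 was higher for 2 of the 10, SIT1 by 1.31 and ARN2 by 0.40. Its differences were -0.10 for FIT1, -0.50 for FIT2, -0.86 for FIT3, -0.15 for ARN1 and -0.55 for ENB1. FET3 differed by -1.86, FTR1 by -1.13 and TIS11 by -1.69 in that culture.

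**Figure D2:**
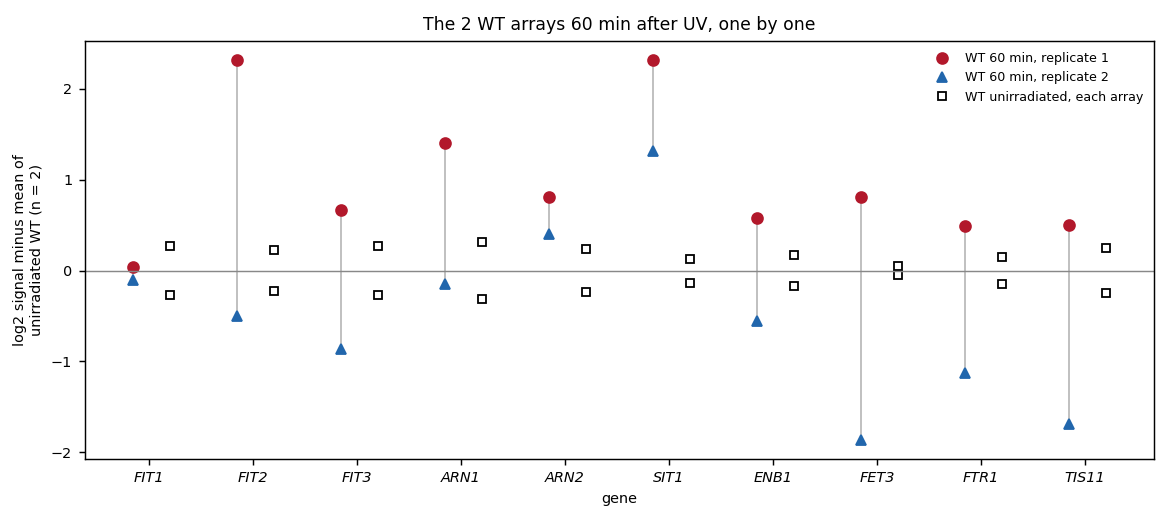
Log2 signal of each gene on each WT array at 60 min (red circle, replicate 1; blue triangle, replicate 2) and on the 2 unirradiated WT arrays (open squares), all minus the mean of the unirradiated arrays. Replicate 1 lies above 0 for all 10 genes, and replicate 2 lies above 0 for SIT1 and ARN2 alone.

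Which array was kept decided the direction of the WT response at 60 min for all members but SIT1 and ARN2. With replicate 1 alone the change was 2.32 for FIT2, 0.81 for FET3 and 0.51 for TIS11. With replicate 2 alone it was -0.50, -1.86 and -1.69 in the same order. SIT1 kept its direction, at 2.31 and 1.31. A single array has no spread of its own, so no test is given for these values. On the lists of other iron genes, replicate 1 was above replicate 2 for 6 of 7 genes of low-affinity and copper transport, by more than 2-fold for 2 and with 0 more than 2-fold the other way. It was so for 5 of 8 reductases (4 by more than 2-fold, 1 the other way), 5 of 7 vacuolar and mitochondrial iron genes (0 and 0) and 5 of 9 other Aft1 targets (2 and 2). For regulators and sensors it was 4 of 9 (0 and 0), and for iron-using proteins 9 of 19 (0 and 3). As examples picked after their values were seen, FRE7, a reductase gene induced when copper is low, read 11.62 in replicate 1 and 8.70 in replicate 2, and HMX1, the heme oxygenase, read 10.73 and 12.33 in the same order. LSO1, another Aft1 target, read 3.07, below the detection limit of 4, in replicate 1 and 7.94 in replicate 2. It ranked last of the 5380 in replicate 1 minus replicate 2. The 8 reductases include FRE5, which was too dim to test. A smaller difference of the same direction was present in the other WT pairs: replicate 1 was above replicate 2 for 10 of 10 genes in unirradiated cells (median 0.47) and at 15 min (median 0.42), and for 8 of 10 at 30 min (median 0.15). Of all tested probe sets, 45.6%, 48.9% and 54.9% were higher in replicate 1 of these pairs. In the deletion strains the count ran from 0 of 10 (snf1Δ at 30 min, all probe sets 58.0%) to 7 of 10. The 7 were in unirradiated snf1Δ rad23Δ (40.4%) and rad4Δ at 30 min (41.3%).

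Before any UV, the deletion strains were compared with WT to see what each deletion does by itself. Several iron uptake genes were higher in unirradiated snf1Δ rad23Δ, snf1Δ and rad23Δ cells than in WT, and those called differed between the strains. Genes for the siderophore transporters accounted for 12 of the 18 higher calls over the 5 strains. FET3 and FTR1 were called in none of them. In rad4Δ the single call was a lower TIS11. All 5 comparisons share the same 2 unirradiated WT arrays.

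By count, 6 of the 10 genes were called higher in snf1Δ rad23Δ (all probe sets, 17.3%), 5 in snf1Δ (21.6%), 5 in rad23Δ (22.2%), 0 in rad4Δ (2.75%) and 2 in mig3Δ (3.27%). The single lower call, in rad4Δ, stands beside 4% of all probe sets called lower there. No member was called lower in the other strains, where 21.4% (snf1Δ rad23Δ), 23.6% (snf1Δ), 25.4% (rad23Δ) and 5.04% (mig3Δ) of all probe sets were. The median difference of the 10 genes was 1.08 in snf1Δ rad23Δ, 0.89 in snf1Δ, 1.11 in rad23Δ, -0.21 in rad4Δ and 0.42 in mig3Δ, where the medians over all probe sets ran from -0.10 to 0.06. In snf1Δ rad23Δ and in rad23Δ all 10 differences were positive, in snf1Δ 9 of 10, in mig3Δ 8 of 10 and in rad4Δ 4 of 10.

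**Figure D3:**
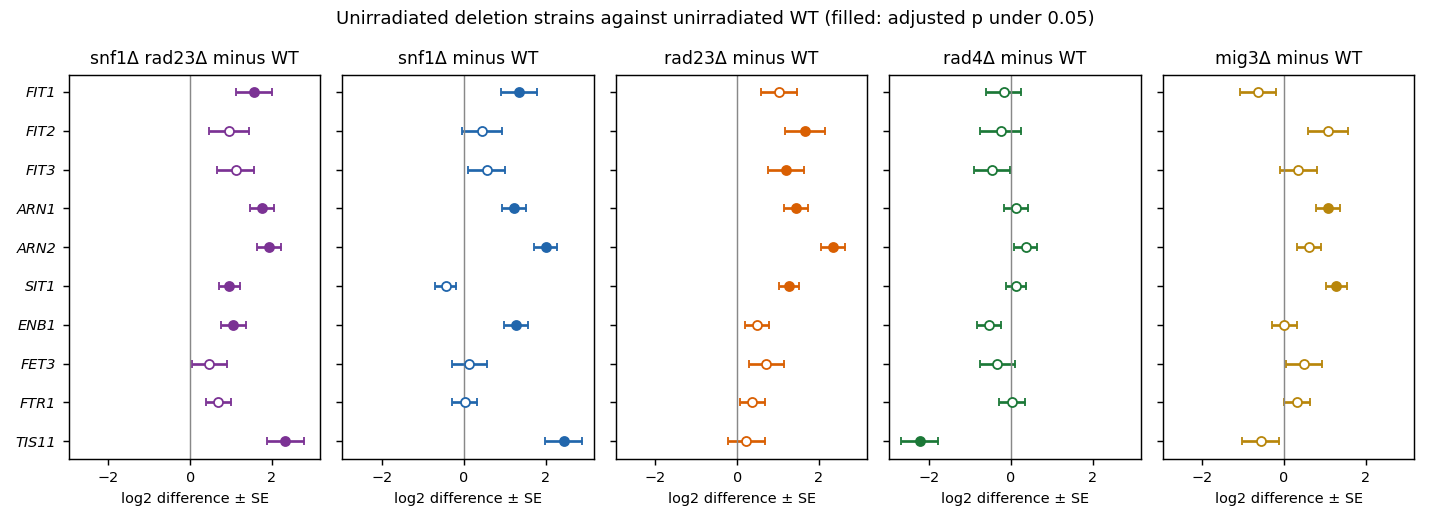
Difference in log2 signal between each unirradiated deletion strain and unirradiated WT (point, with SE as bar) for the 10 genes, 1 panel per strain, with filled points for an adjusted p under 0.05. FET3 and FTR1 lie within 0.71 of 0 in all 5 panels, ARN2 reaches 2.33 in rad23Δ, and TIS11 runs from 2.44 in snf1Δ to -2.22 in rad4Δ.

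Of the mannoprotein genes, FIT2 and FIT3 were called in rad23Δ and FIT1 in the strains lacking SNF1. FIT1 read 8.42 and 8.76 in snf1Δ rad23Δ and 8.27 and 8.50 in snf1Δ, against 7.29 and 6.76 in WT. The differences were 1.57 ± 0.44 (limma adjusted p = 0.00678) and 1.36 ± 0.44 (limma adjusted p = 0.014). FIT1 in rad23Δ missed the threshold, at 1.02 ± 0.44 (limma adjusted p = 0.0572). FIT2 read 12.71 and 12.63 in rad23Δ, against 11.24 and 10.78 in WT, and was 3.16-fold higher (limma adjusted p = 0.00766). FIT3 read 12.94 and 12.64 in rad23Δ, against 11.86 and 11.33 in WT, and was 2.29-fold higher (limma adjusted p = 0.0309). In snf1Δ rad23Δ FIT3 read 12.69 and 12.72 and missed the threshold, at 1.11 ± 0.45 (limma adjusted p = 0.053). It was not called different between snf1Δ rad23Δ and rad23Δ (-0.09 ± 0.45, limma adjusted p = 0.913). The FIT2 difference from WT in snf1Δ rad23Δ was 0.94 ± 0.49 (limma adjusted p = 0.132).

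ARN1, a transporter of ferrichrome-type siderophores, was called higher in 4 of the 5 strains. It read 11.94 and 11.51 in snf1Δ rad23Δ, 11.08 and 11.33 in snf1Δ, 11.34 and 11.48 in rad23Δ and 11.03 and 11.06 in mig3Δ, against 10.29 and 9.66 in WT. No array of these 4 strains overlapped the WT arrays. ARN2, the transporter of triacetylfusarinine C, read 10.45 and 10.42 in snf1Δ rad23Δ, 10.42 and 10.62 in snf1Δ and 10.83 and 10.87 in rad23Δ, against 8.75 and 8.28 in WT. It was 3.78-fold, 4-fold and 5.04-fold higher in these strains, with limma adjusted p values of 2.18e-05, 7.47e-06 and 1.09e-06. In each of these strains this was the largest difference among the siderophore transporter genes.

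SIT1, the ferrioxamine B transporter, and ENB1, the enterobactin transporter, split by strain. SIT1 read 11.96 and 11.86 in rad23Δ, 11.94 and 11.92 in mig3Δ and 11.85 and 11.37 in snf1Δ rad23Δ, and 10.20 and 10.22 in snf1Δ, against 10.78 and 10.52 in WT. It was called in rad23Δ (1.26 ± 0.25), mig3Δ (1.28 ± 0.25) and snf1Δ rad23Δ (0.96 ± 0.25), while in snf1Δ the difference was -0.44 ± 0.25 (limma adjusted p = 0.153). ENB1 read 12.35 and 11.84 in snf1Δ rad23Δ and 12.22 and 12.40 in snf1Δ, against 11.21 and 10.87 in WT, and was called in both (1.06 ± 0.30 and 1.27 ± 0.30). In rad23Δ its difference was 0.48 ± 0.30 and in mig3Δ 0.01 ± 0.30, neither called.

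TIS11 was raised in the strains without SNF1 and lowered in rad4Δ. It read 11.65 and 12.30 in snf1Δ rad23Δ, 12.06 and 12.13 in snf1Δ and 7.39 and 7.47 in rad4Δ, against 9.90 and 9.40 in WT. The changes were 5.01-fold higher in snf1Δ rad23Δ (limma adjusted p = 3.94e-04), 5.44-fold higher in snf1Δ (limma adjusted p = 1.48e-04) and 4.67-fold lower in rad4Δ (limma adjusted p = 0.00352). No array of the 3 strains overlapped the WT arrays. FET3 differed from WT by -0.33 to 0.71 and FTR1 by 0.02 to 0.69 over the 5 strains, with no call. FET3 read 14.07 and 13.92 in rad23Δ, 13.80 and 13.72 in snf1Δ rad23Δ and 13.79 and 13.76 in mig3Δ. In snf1Δ it read 13.39 and 13.46 and in rad4Δ 13.00 and 12.92, against 13.34 and 13.24 in WT. These arrays lay above both WT arrays, except in rad4Δ, where they lay below. The SE of FET3 includes the spread of a WT pair outside these comparisons. The missing calls therefore do not show that FET3 was unchanged.

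Of the 19 calls, 11 held without any 1 array. Leaving out unirradiated WT replicate 2, the lower of the pair for all 10 genes, ended 7: FIT1 in snf1Δ (1.09) and in snf1Δ rad23Δ (1.30), FIT2 (1.43) and FIT3 (0.93) in rad23Δ, SIT1 (0.83) and ENB1 (0.89) in snf1Δ rad23Δ, and ARN1 in mig3Δ (0.76). Without WT replicate 1, TIS11 in rad4Δ was lost (-1.98). In the deletion strains, SIT1 (0.72) and ENB1 (0.80) were lost without snf1Δ rad23Δ replicate 1, FIT1 without snf1Δ rad23Δ replicate 2 (1.40) or snf1Δ replicate 2 (1.25), FIT3 without either rad23Δ array (1.04 and 1.34) and ARN1 without either mig3Δ array (1.09 and 1.06).

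The 4 MATalpha marker genes, which mark the other haploid mating type, also had a higher summed signal in the 5 deletion strains before UV. On the log2 scale that sum was 9.84 to 10.23 in snf1Δ rad23Δ, 9.74 to 10.01 in snf1Δ, 10.48 to 11.01 in rad23Δ, 8.70 to 8.92 in rad4Δ and 8.71 to 9.38 in mig3Δ, against 8.22 to 8.63 in WT. In WT at 30 min after UV it was 9.51 to 9.67. The summed signal of 6 MATa marker genes lay between 15.18 and 16.15 on all 41 arrays. The alpha-factor genes MF(ALPHA)1 and MF(ALPHA)2 read below 4 on 37 and 39 of the 41 arrays, STE3 and SAG1 on 0. The exceptions were all rad23Δ arrays, 4 of 6 for MF(ALPHA)1 and 2 of 6 for MF(ALPHA)2. The part of these genes in the result was not tested.

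In the double deletion strain, the question was whether it differs from each single deletion strain before UV. SIT1 was the one member that differed from snf1Δ: it read 11.85 and 11.37 in snf1Δ rad23Δ, against 10.20 and 10.22 in snf1Δ (1.40 ± 0.25, limma adjusted p = 3.74e-04). TIS11 was the one member that differed from rad23Δ: it read 11.65 and 12.30 in snf1Δ rad23Δ, against 9.62 and 10.13 in rad23Δ (4.28-fold higher, limma adjusted p = 0.00162). Each is 1 higher call of 10, beside 9.42% of all probe sets higher and 11.6% lower than in snf1Δ, and 11% higher and 14.4% lower than in rad23Δ. Both calls held without any 1 array. ENB1 in snf1Δ rad23Δ differed by -0.22 ± 0.30 from snf1Δ and by 0.58 ± 0.30 from rad23Δ, and neither difference passed the test.

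After UV, the same strains were followed to see how each gene responded relative to its own unirradiated cells. The mean differences of FET3 and FTR1 were negative in 15 of 15 responses, and each gene was called lower in 4. WT at 60 min counts among the 15 only as the mean of its arrays, since replicate 1 alone was above unirradiated cells (0.81 for FET3 and 0.49 for FTR1). TIS11 was called lower in 6 of 15 and ENB1 in 4 of 15, while neither was called higher in any. FIT1 was called lower in 3. SIT1 was called higher in 4 of 15 and ARN2 in 3, with ARN2 called lower once. FIT2, FIT3 and ARN1 were called in none of the 15. Responses of the same strain share its unirradiated arrays.

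**Figure D4:**
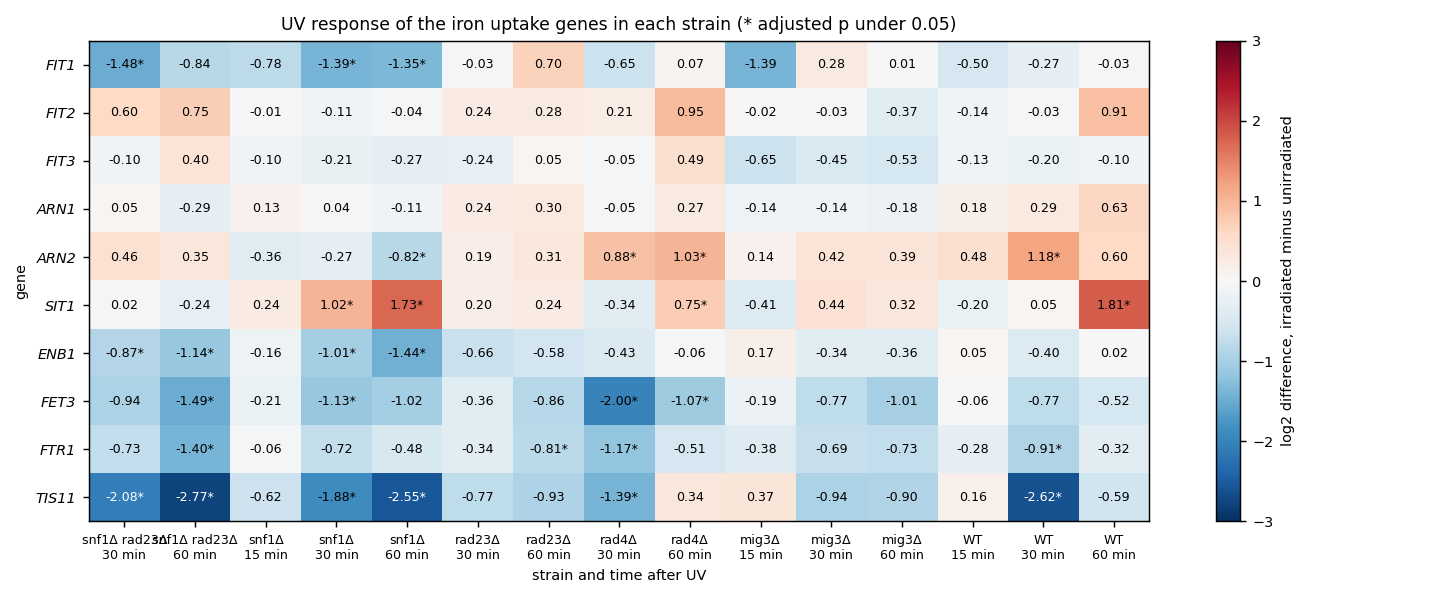
Difference in log2 signal between irradiated and unirradiated cells of the same strain for the 10 genes (rows) in the 15 strain and time comparisons (columns), in red where higher and blue where lower after UV, with an asterisk for an adjusted p under 0.05. The FET3 and FTR1 rows hold negative means throughout, WT at 60 min being the mean of 1 array above and 1 below unirradiated cells, the TIS11 row holds the largest decreases (-2.77 in snf1Δ rad23Δ at 60 min), and the SIT1 row holds the largest increases (1.81 in WT and 1.73 in snf1Δ at 60 min).

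FIT1 was called lower in the strains without SNF1, starting from the high level it had there before UV. It read 8.27 and 8.50 in unirradiated snf1Δ, 7.56 and 7.66 at 15 min, 6.94 and 7.05 at 30 min and 6.98 and 7.09 at 60 min. The changes at 30 and 60 min were -1.39 ± 0.44 and -1.35 ± 0.44 (limma adjusted p = 0.0184 and 0.0156). In snf1Δ rad23Δ it read 8.42 and 8.76 before UV, 7.02 and 7.20 at 30 min and 7.02 and 8.48 at 60 min, where only the 30 min change of -1.48 ± 0.44 was called (limma adjusted p = 0.0105). The 60 min arrays of that strain were 1.47 apart. In rad23Δ FIT1 changed by -0.03 and 0.70 at 30 and 60 min, neither called. FIT2 changes ran from -0.37 in mig3Δ to 0.95 in rad4Δ, both at 60 min, and FIT3 changes from -0.65 in mig3Δ at 15 min to 0.49 in rad4Δ at 60 min, with no call. The SE of FIT2 includes the spread of the WT pair at 60 min. In rad4Δ FIT2 read 11.58 and 11.84 at 60 min, against 10.69 and 10.83 before UV, without overlap.

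SIT1 in snf1Δ read 10.20 and 10.22 before UV, 10.51 and 10.40 at 15 min, 11.08 and 11.39 at 30 min and 11.95 and 11.93 at 60 min. It was called higher at 30 min (1.02 ± 0.25, limma adjusted p = 0.00309) and 60 min (1.73 ± 0.25, limma adjusted p = 8.45e-06). In rad4Δ it read 10.73 and 10.85 before UV, 10.57 and 10.34 at 30 min and 11.59 and 11.49 at 60 min, where it was called higher (0.75 ± 0.25, limma adjusted p = 0.0134). The strains with a SIT1 level called above WT before UV had no SIT1 call after it: the 60 min changes were -0.24 in snf1Δ rad23Δ, 0.24 in rad23Δ and 0.32 in mig3Δ. At 60 min the SIT1 arrays of all 6 strains lay between 11.27 and 12.96.

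ENB1 was called lower in snf1Δ and snf1Δ rad23Δ at both 30 and 60 min. In snf1Δ it read 12.22 and 12.40 before UV, 12.07 and 12.23 at 15 min, 11.19 and 11.41 at 30 min and 10.80 and 10.95 at 60 min (-1.44 ± 0.30 at 60 min, limma adjusted p = 4.77e-04). In snf1Δ rad23Δ it read 12.35 and 11.84 before UV, 11.28 and 11.18 at 30 min and 10.97 and 10.94 at 60 min (-1.14 ± 0.30 at 60 min, limma adjusted p = 0.00276). In both strains every 60 min array lay below every 30 min array. ARN2 was called higher in rad4Δ, with 8.80 and 8.96 before UV, 9.79 and 9.74 at 30 min and 9.95 and 9.87 at 60 min (1.03 ± 0.29 at 60 min, limma adjusted p = 0.00462). In snf1Δ it was called lower at 60 min, at 9.67 and 9.71, against 10.42 and 10.62 before UV (-0.82 ± 0.29, limma adjusted p = 0.0248). ARN1 changes ran from -0.29 in snf1Δ rad23Δ at 60 min to 0.63 in WT at 60 min, where the 2 arrays gave 1.40 and -0.15.

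FET3 fell most in rad4Δ, where it read 13.0 and 12.9 before UV, 11.25 and 10.68 at 30 min and 12.07 and 11.73 at 60 min. The changes were -2.00 ± 0.43 at 30 min (limma adjusted p = 0.00107) and -1.07 ± 0.43 at 60 min (limma adjusted p = 0.0401). FTR1 in rad4Δ read 12.22 and 12.28 before UV, 11.24 and 10.91 at 30 min and 11.82 and 11.64 at 60 min, and was called at 30 min (-1.17 ± 0.31, limma adjusted p = 0.00571). For both genes the 30 min arrays of rad4Δ lay below its 60 min arrays. In snf1Δ rad23Δ both were called at 60 min and not at 30 min. FET3 read 13.80 and 13.72 before UV, 12.76 and 12.87 at 30 min and 12.23 and 12.31 at 60 min there (-1.49 ± 0.43, limma adjusted p = 0.00604). FTR1 read 13.0 and 12.8 before UV, 11.95 and 12.40 at 30 min and 11.32 and 11.68 at 60 min (-1.40 ± 0.31, limma adjusted p = 6.88e-04). FET3 was also called lower in snf1Δ at 30 min (-1.13 ± 0.43) and FTR1 in rad23Δ at 60 min (-0.81 ± 0.31), and median centring of the arrays ended both of these calls with little change in value (-1.13 and -0.78). Quantile normalization also ended the FET3 call (-1.12).

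TIS11 fell in both strains without SNF1 and in rad4Δ. In snf1Δ it read 12.06 and 12.13 before UV, 11.45 and 11.50 at 15 min, 10.22 and 10.22 at 30 min and 9.44 and 9.66 at 60 min, a change of -2.55 ± 0.46 at 60 min (limma adjusted p = 1.26e-04). In snf1Δ rad23Δ it read 11.65 and 12.30 before UV, 9.82 and 9.98 at 30 min and 9.47 and 8.94 at 60 min, a change of -2.77 ± 0.46 at 60 min (limma adjusted p = 3.45e-05). In these strains the arrays of each time lay below those of the time before. In rad4Δ, which had the low starting level of 7.39 and 7.47, TIS11 read 6.65 and 5.42 at 30 min and 7.72 and 7.82 at 60 min, with a call at 30 min (-1.39 ± 0.46, limma adjusted p = 0.0227). In rad23Δ the changes were -0.77 and -0.93 at 30 and 60 min, and in mig3Δ -0.94 and -0.90, none called.

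The share of the 10 genes called higher was at or below that of all genes in each deletion strain, and the share called lower was above it in snf1Δ and snf1Δ rad23Δ at both 30 and 60 min and in rad4Δ at 30 min. With 10 genes each such gap is a small number of genes, and it was not tested. Several of these lower calls, named further below, did not hold when 1 array was left out. In snf1Δ, 1 of 10 was called higher and 4 lower at 30 min, beside 15.7% and 15.3% of all probe sets, and 1 higher and 4 lower at 60 min, beside 22.4% and 21%. In snf1Δ rad23Δ, 0 were called higher and 3 lower at 30 min, beside 19.4% and 16.1%, and 0 higher and 4 lower at 60 min, beside 27.2% and 25.6%. In rad4Δ, 1 was called higher and 3 lower at 30 min, beside 14.5% and 18%, and 2 higher and 1 lower at 60 min, beside 26.9% and 26.9%. In rad23Δ at 60 min 0 were called higher and 1 lower, beside 23.8% and 19.3%. With limma 0 members were called in rad23Δ at 30 min (all probe sets, 28.5%) and in mig3Δ at 15, 30 and 60 min (0.743%, 23.6% and 17%), where 1, 1, 1 and 2 members had an unadjusted p under 0.05. In snf1Δ at 15 min 0 were called (all probe sets, 9.87%) and 0 had an unadjusted p under 0.05. With array weights the counts were 2 in rad23Δ at 30 min, 1 in mig3Δ at 15 min and 4 in snf1Δ at 15 min. The percentages above are from the fit without weights. The shares of all probe sets called with array weights are not given here, so these counts are not read as particular to the members.

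Of the 29 UV calls in all strains, 12 held without any 1 array. These were TIS11 in WT and SIT1 in WT as above, TIS11 in snf1Δ and snf1Δ rad23Δ at both 30 and 60 min, SIT1 and ENB1 in snf1Δ at 60 min, FET3 and FTR1 in snf1Δ rad23Δ at 60 min, FET3 in rad4Δ at 30 min and ARN2 in rad4Δ at 60 min. Another 6 calls, FTR1 in WT included, were lost without any 1 of their 4 arrays: FIT1 and FET3 in snf1Δ at 30 min (-1.50 to -1.28 and -1.19 to -1.08), ARN2 in snf1Δ at 60 min (-0.93 to -0.72), ARN2 in rad4Δ at 30 min (0.81 to 0.96) and FET3 in rad4Δ at 60 min (-1.24 to -0.89).

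The remaining UV calls in the deletion strains rested on certain arrays. TIS11 in rad4Δ at 30 min was not called without 30 min replicate 2 (-0.78) or without either unirradiated array (-1.44 and -1.35), and FTR1 there was lost without 30 min replicate 2 (-1.01). SIT1 in rad4Δ at 60 min was lost without unirradiated replicate 1 (0.69) or 60 min replicate 1 (0.70). In snf1Δ at 30 min SIT1 was lost without 30 min replicate 2 (0.87), and ENB1 without unirradiated replicate 2 (-0.93) or 30 min replicate 1 (-0.91). FIT1 in snf1Δ at 60 min was lost without unirradiated replicate 2 (-1.24) or either 60 min array (-1.29 and -1.41). In snf1Δ rad23Δ at 30 min FIT1 was lost without unirradiated replicate 2 (-1.31) or 30 min replicate 1 (-1.39), and ENB1 without unirradiated replicate 1 (-0.61) or either 30 min array (-0.92 and -0.82). ENB1 in that strain at 60 min was lost without unirradiated replicate 1 (-0.89). FTR1 in rad23Δ at 60 min was lost without unirradiated replicate 1 (-0.60) or either 60 min array (-0.78 and -0.84).

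The UV response of each deletion strain was then set against that of WT at the same time, which asks whether the deletion changes the response. Of 120 such tests 9 were called, all negative. SIT1 gave 4 of them, at 60 min, in snf1Δ rad23Δ (-2.06 ± 0.35, limma adjusted p = 4.02e-04), rad23Δ (-1.57 ± 0.35, limma adjusted p = 0.00474), mig3Δ (-1.49 ± 0.35, limma adjusted p = 0.0369) and rad4Δ (-1.06 ± 0.35, limma adjusted p = 0.038). In snf1Δ the SIT1 response at 60 min was 1.73, against 1.81 in WT, and was not called different. ARN2 in snf1Δ differed by -1.45 ± 0.41 at 30 min (limma adjusted p = 0.0462) and by -1.43 ± 0.41 at 60 min (limma adjusted p = 0.0153). ENB1 in snf1Δ differed by -1.46 ± 0.42 at 60 min (limma adjusted p = 0.0154). TIS11 at 60 min differed by -2.18 ± 0.65 in snf1Δ rad23Δ (limma adjusted p = 0.0213) and by -1.96 ± 0.65 in snf1Δ (limma adjusted p = 0.0341). All these comparisons share the WT arrays.

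At 60 min 2 members were called lower in snf1Δ rad23Δ (all probe sets, 8.74%), 3 in snf1Δ (9.52%), 1 in rad23Δ (5.56%), 1 in rad4Δ (9.07%) and 1 in mig3Δ (0.297%), and at 30 min 1 in snf1Δ (1.93%). Of the 9, 8 rest on the WT arrays at 60 min. With WT replicate 1 alone, the FIT2 difference was -1.57 in snf1Δ rad23Δ, -2.36 in snf1Δ, -2.04 in rad23Δ, -1.37 in rad4Δ and -2.69 in mig3Δ. With WT replicate 2 alone, it was 1.25, 0.46, 0.78, 1.45 and 0.13 in the same order. FET3 changed direction too: its response in rad23Δ minus that in WT was -0.33 with both WT arrays, -1.67 with replicate 1 alone and 1.00 with replicate 2 alone. SIT1 in snf1Δ rad23Δ and in rad23Δ stayed called without any 1 array, at -2.55 to -1.56 and -2.07 to -1.07. Both calls were lost when the fit held only the arrays compared, and that in rad23Δ also with array weights. For the other 7, the range without 1 array was -1.99 to -0.99 for SIT1 in mig3Δ, -1.56 to -0.56 for SIT1 in rad4Δ, -1.66 to -1.19 for ARN2 and -2.02 to -0.89 for ENB1 in snf1Δ at 60 min, -3.05 to -0.86 and -3.27 to -1.08 for TIS11 in snf1Δ and snf1Δ rad23Δ, and -1.69 to -1.21 for ARN2 in snf1Δ at 30 min. In the remaining comparisons, at 15 and 30 min, limma called 0 members: mig3Δ at 15 min (all probe sets, 0.0186%) and 30 min (0.948%), snf1Δ at 15 min (1.86%), rad23Δ at 30 min (3.36%), snf1Δ rad23Δ at 30 min (3.16%) and rad4Δ at 30 min (0.818%). There 0, 1, 0, 2, 0 and 0 members had an unadjusted p under 0.05.

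How alike the 10 genes were was described by Pearson's r over the 21 group means, without a test, since the groups share strains and arrays share processing. TIS11 and ENB1 were the closest pair (r = 0.953), followed by FTR1 and FET3, the 2 parts of the uptake complex (0.865). ARN1, ARN2 and FIT3 formed another close set, with r of 0.85 for ARN1 and FIT3, 0.832 for ARN2 and FIT3 and 0.818 for ARN2 and ARN1. SIT1 stood apart, with r of -0.20 to ENB1 and -0.107 to TIS11, and its closest member was FIT2 (0.687). FET3 and FTR1 were nearly unrelated to ARN2 (0.063 and 0.049). Of the 45 pairs, 10 had an r of at least 0.7 and 13 were below 0.3. Leaving out WT at 60 min gave the same r for TIS11 with ENB1 (0.953) and for FTR1 with FET3 (0.865).

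**Figure D5:**
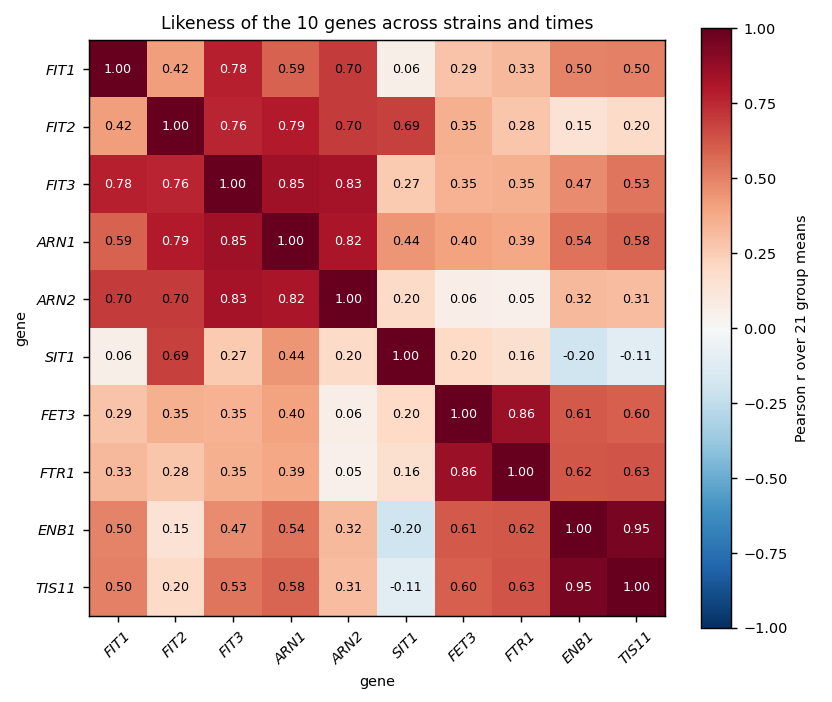
Pearson's r between the 10 genes over the 21 strain and time group means (rows and columns are genes, red positive, blue negative). FET3 with FTR1 and ENB1 with TIS11 form 2 close pairs, and the SIT1 row is the palest, with its highest value at FIT2.

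The mean pattern of the 10 genes, each scaled to the same spread, was then matched to all other tested genes over the 21 groups. The 10 most like it were COX4 (r = 0.92), a subunit of cytochrome c oxidase, THI20 (0.91), which acts in thiamine metabolism, VMR1 (0.90), PHM7 (0.90), YER158C (0.90), SMF1 (0.90), YGL258W-A (0.90), YRO2 (0.90), CHS7 (0.90) and MIR1 (0.90), the mitochondrial phosphate carrier. SMF1, a manganese and divalent metal transporter of the plasma membrane, was the one of these on the lists of other iron and copper genes. ARN1 was the member closest to the mean pattern (r = 0.90) and SIT1 the farthest (0.38). Each member is part of that mean, which raises its own r, so members and other genes are not compared by r. The genes least like the pattern were GCS1 (-0.94) and RTF1 (-0.94), as far from 0 as the most alike. Without WT at 60 min COX4 was again first, at 0.93.

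Other genes of iron handling, on lists of known genes, were counted in the same fits. Among 9 tested Aft1 targets outside the 10, 6 were called higher and 1 lower in unirradiated snf1Δ rad23Δ, 5 and 1 in snf1Δ, 6 and 0 in rad23Δ, 0 and 1 in rad4Δ and 3 and 0 in mig3Δ. Over all 5380 tested probe sets the shares called were 17.3% higher and 21.4% lower in snf1Δ rad23Δ, 21.6% and 23.6% in snf1Δ, 22.2% and 25.4% in rad23Δ, 2.75% and 4% in rad4Δ and 3.27% and 5.04% in mig3Δ. Among these targets BNA2 had the largest difference in snf1Δ rad23Δ, snf1Δ and rad23Δ. It read 11.25 and 11.81 in snf1Δ rad23Δ, 11.53 and 11.50 in snf1Δ and 11.60 and 12.20 in rad23Δ, against 8.47 and 8.10 in WT, differences of 3.25 ± 0.46, 3.23 ± 0.46 and 3.61 ± 0.46. HMX1 was called higher in the same 3 strains (1.07, 1.44 and 1.40). Of 7 tested ferric and cupric reductases, which reduce the metal before uptake, 4 were called higher in each of the 3 strains and 0, 1 and 1 lower, with FRE2 at 2.16, 2.62 and 2.54 and FRE3 at 1.91, 1.52 and 2.01. In rad4Δ 1 reductase was called, FRE2 (1.13 ± 0.32), and in mig3Δ limma called 0. SMF1 was higher in all 3 as well (1.97, 1.75 and 1.39). AFT1 itself was lower in snf1Δ rad23Δ (-0.70 ± 0.17) and snf1Δ (-0.54 ± 0.17).

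After UV these other lists moved in both directions. In WT at 30 min, 2 of 7 tested reductases were called higher and 2 lower, beside 12.6% and 12.6% of all probe sets, with FRE2 at 1.94 ± 0.32 and FRE7 at -1.99 ± 0.67. VHT1, the biotin transporter and an Aft1 target, read 12.12 and 12.24 at 30 min, against 10.09 and 9.93 in unirradiated WT (2.17 ± 0.23, limma adjusted p = 1.10e-06). MRS4, a mitochondrial iron carrier, was called lower in WT at 15, 30 and 60 min (-0.68, -0.81 and -0.94, with -0.81 and -1.06 on the 2 arrays at 60 min). AFT1 was lower in WT at 30 min (-0.51 ± 0.17) and 60 min (-0.47 ± 0.17, with -0.34 and -0.60 on its 2 arrays), and AFT2 at 60 min (-0.81 ± 0.19, with -0.87 and -0.75). Among 19 iron-using proteins, 1 was called higher and 2 lower in WT at 30 min. In snf1Δ at 60 min 6 were called higher and 2 lower, beside 22.4% and 21% of all probe sets, and in snf1Δ rad23Δ at 60 min 8 higher and 4 lower, beside 27.2% and 25.6%. LSO1, a gene of a small iron-regulated protein, read 6.94 and 7.80 in rad4Δ at 60 min, and was below the detection limit of 4 on both unirradiated rad4Δ arrays, so that no size is given for its difference.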

How the data were processed

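The deposited values were used as given: log2 signal per probe set, computed by the authors with GCRMA 2.10.0 in R 2.6.2, per the submitters' processing notes. GCRMA corrects background by probe sequence, normalizes arrays to one distribution and summarises probes, so a change shared by most genes is removed. Of 10928 probe sets, 5498 matched a gene of the R64 table by the probe annotation; 1746 were listed with genes outside it, and their 95th percentile of 2.12 to 2.19 served as background. Probe sets under 4 on all but 1 array were left out (118), which kept 5380. The number of arrays, 1 or 2 a group, limits the precision, and no other limit was set against it.

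Groups came from the sample titles. limma 3.58.1 in R 4.3.3 fitted 1 mean per group (21 groups, 41 arrays, 20 residual and 2.86 prior degrees of freedom) and 34 contrasts: 15 UV responses, 5 strain and 2 double deletion comparisons and 12 differences of response. The group of 1 array was assumed to vary like the others. The 10 genes, the lists of other iron genes and the tests were chosen with earlier results of these data known. Named are the 10 genes, up to 4 called genes per list and contrast with the largest change, the 10 genes most like the mean pattern, and GCS1 and RTF1, the least like it. ICY2 was not analysed here and FRE5 was too dim to test. On simulated data the fit for the WT response at 60 min recovered 26.9%, 76.1% and 95.5% of genes changed by 0.5, 1 and 2, with 9 of 5180 unchanged genes called. The simulation gave each gene the same spread in every group, whereas the real WT pair at 60 min lay furthest apart. These figures therefore do not give the recovery or the false calls of that comparison on the real arrays. Alternatives were no filter, median centring, quantile normalization, array weights, an intensity trend, fits to only the arrays compared, 2 kinds of replicate block and leaving out each array of the groups compared. Sequences are not shown, and no coordinates are printed, as no source used here names the files' genome build.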

Additional observations from a re-analysis of the deposited data

Results flagged for a closer look

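In 9 comparisons of a gene in a strain at a given time, the UV response differed from the WT response by a test of the difference itself (limma, adjusted p under 0.05). Each of these responses was lower than in WT. SIT1 differed at 60 min by -2.06 in snf1Δ rad23Δ, -1.57 in rad23Δ, -1.49 in mig3Δ and -1.06 in rad4Δ. ARN2 in snf1Δ differed by -1.45 at 30 min and -1.43 at 60 min, and ENB1 in snf1Δ by -1.46 at 60 min. TIS11 differed at 60 min by -2.18 in snf1Δ rad23Δ and by -1.96 in snf1Δ. All but ARN2 at 30 min rest on the 2 WT arrays at 60 min, which read SIT1 at 12.96 and 11.97, ARN2 at 9.32 and 8.91, ENB1 at 11.62 and 10.49 and TIS11 at 10.16 and 7.97. SIT1 in snf1Δ rad23Δ and rad23Δ kept its call without any 1 array, but both calls were lost when the fit held only the arrays compared, and that in rad23Δ also with array weights. Of the 9, 0 were called in every setting. No group has more than 2 arrays, so no array was tested for standing apart within its group.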

How the results depend on the processing

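Over all 340 tests of a gene in a comparison, 59 were called. Quantile normalization gave 58, median centring 58, no filter 59, an intensity trend 61, array weights 86 and the arrays of each comparison alone 82. No label says that equal replicate numbers pair arrays: same-numbered arrays had correlations of their deviations from -0.36 to 0.714 over pairs of groups. The replicate block gave 60 calls, with 6 in rad23Δ against WT before UV, beside 5 without it, and a replicate block within each strain, added after seeing the data, gave 72. Using the mean of all probe sets of a gene could not differ, as each has 1.

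Counts of members called moved as follows. With array weights they were 1 in mig3Δ at 15 min (0 without), 4 in snf1Δ at 15 min (0), 2 in rad23Δ at 30 min (0), 4 in rad23Δ at 60 min (1), 5 in snf1Δ rad23Δ at 30 min (3), 5 in rad4Δ at 60 min (3) and 2 in the double deletion strain minus snf1Δ (1). For response minus WT response they were 0 in mig3Δ at 60 min (1), 1 in snf1Δ at 15 min (0), 4 at 30 min (1) and 1 at 60 min (3), 2 in rad23Δ at 30 min (0) and 0 at 60 min (1), 1 in snf1Δ rad23Δ at 60 min (2), and 1 in rad4Δ at 30 min (0) and 0 at 60 min (1). With the arrays of the comparison alone they were 0 in WT at 60 min (1), 5 in snf1Δ at 15 min (0), 1 in rad23Δ at 30 min (0) and 5 at 60 min (1), 7 in rad4Δ at 60 min (3), 1 in mig3Δ minus WT before UV (2), and 3 and 2 in the double strain minus snf1Δ and minus rad23Δ (1 and 1). For response differences the counts were 3 in snf1Δ at 30 min (1), 1 in rad23Δ at 30 min (0), and 0 at 60 min in mig3Δ (1), rad23Δ (1), snf1Δ rad23Δ (2) and rad4Δ (1). The within-strain replicate block gave 2 in WT at 60 min (1) and 5 in the snf1Δ rad23Δ response difference at 60 min (2), and median centring gave 0 in rad23Δ at 60 min (1). The cause was not tested. The shares of all probe sets called in these alternative fits are not given here, so these counts are not read as particular to the members.

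Leaving out 1 array, the counts ran from 1 to 2 in WT at 30 min (3 with all), 1 to 4 in WT at 60 min (1), 0 to 1 in mig3Δ at 30 min (0) and 60 min (0), 2 to 3 in snf1Δ at 30 min (5) and 3 to 4 at 60 min (5), 0 to 1 in rad23Δ at 60 min (1), 1 to 2 in snf1Δ rad23Δ at 30 min (3), 1 to 3 in rad4Δ at 30 min (4) and 1 to 2 at 60 min (3). Before UV they ran from 1 to 2 in mig3Δ (2), 3 to 5 in rad23Δ (5), 3 to 6 in snf1Δ rad23Δ (6) and 0 to 1 in rad4Δ (1). For response differences they ran from 0 to 1 in snf1Δ at 30 min (1), and at 60 min 0 to 5 in mig3Δ (1), 0 to 7 in snf1Δ (3), 1 to 7 in rad23Δ (1), 1 to 7 in snf1Δ rad23Δ (2) and 0 to 5 in rad4Δ (1). Direction turned for some members when 1 WT array at 60 min was left out. FET3 in WT was 0.81 without replicate 2 and -1.86 without replicate 1. Its response difference, without replicate 2 and without replicate 1, was -1.83 and 0.84 in snf1Δ, -1.67 and 1.00 in rad23Δ and -1.88 and 0.79 in rad4Δ. That of FIT2, in the same order, was -1.57 and 1.25 in snf1Δ rad23Δ and -1.37 and 1.45 in rad4Δ. Fits without 1 array rest on fewer samples in a group. The shares of all probe sets called in them are not given here, so the counts above are not read as particular to the members. Of the 59 calls, 27 held without any 1 array: 12 of 29 UV responses, 11 of 19 strain differences, 2 of 2 double deletion differences and 2 of 9 response differences. FIT1 and TIS11 had the lowest single readings, TIS11 at 5.42 and FIT1 below that, both above the detection limit of 4, and whether signal limits these values was not tested.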
